A study of Mus musculus with 57 samples.

Results

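The CC chemokines described here are 10 genes, Ccl2, Ccl3, Ccl4, Ccl5, Ccl6, Ccl7, Ccl8, Ccl9, Ccl12 and Ccl24, taken by name from the family of small secreted proteins that attract leukocytes. All 10 were found in both count tables of the study, among 50565 genes in the table of its sex experiment and 53278 genes in the table of its LPS experiment. RNA had been sequenced from CD11b-positive cells of adult mouse brain, labelled microglia, of wild-type (WT) mice and of littermates deficient in P2RY12 (KO), a receptor for extracellular nucleotides on resting microglia. The sex experiment used 4 WT and 5 KO males and 4 WT and 5 KO females. The LPS experiment held libraries labelled ns, a term that the labels do not define, and LPS, lipopolysaccharide of bacterial cell walls given into the peritoneum at 1 mg/kg. A note on LPS stands on the labels of every library, those of the sex experiment included, whose titles name only sex and genotype. The knockout allele, the strain and the time after injection are not given in the sources used here, nor is the sex of the animals of the LPS experiment. What numbered libraries of a group share (litter, day, cell preparation) is not given either, so p-values measure only the spread between these libraries, which may in part be technical.

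CC chemokines bind G protein-coupled receptors on leukocytes and guide their migration. Ccl2, Ccl7 and Ccl12 act on CCR2, the receptor by which inflammatory monocytes leave the bone marrow and enter tissue. Ccl3, Ccl4 and Ccl5 attract T cells and macrophages, and Ccl3 and Ccl5 act on CCR1. Ccl6 and Ccl9 are CCR1 ligands made constitutively by myeloid cells. Mouse Ccl8 acts on CCR8, and Ccl24 (eotaxin-2) on CCR3, the receptor of eosinophils. Microglia and other brain macrophages make several of these proteins after bacterial stimuli.

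Of the 10 genes, 9 lie in a pair of groups on chromosome 11 (GRCm39, as in the table of the sex experiment). The first group, on the plus strand, holds Ccl2 (chr11:81926403-81928278), Ccl7 (chr11:81936538-81938351), Ccl12 (chr11:81992671-81994225) and Ccl8 (chr11:82006011-82007625). The second holds Ccl5 (chr11:83416604-83421344), Ccl9 (chr11:83463743-83469462), Ccl6 (chr11:83478712-83483913) and Ccl3 (chr11:83538669-83540204) on the minus strand and Ccl4 (chr11:83553410-83555509) on the plus strand. Ccl24 lies alone on chromosome 5 (chr5:135598789-135601977, minus strand). Genes annotated on the opposite strand overlap Ccl3 (Gm53692), Ccl5 (Gm32650) and Ccl6 (E230016K23Rik), and without a stated strand setting their reads cannot be told apart from those of the chemokine. No run of 50 bases was shared between the transcripts in any of 45 pairs of the 10 genes.

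Promoter sequences (RefSeq, build GRCm38.p6, 250 bases before to 50 bases after the start site) were matched for 5 of the 10 genes, Ccl3, Ccl6, Ccl8, Ccl9 and Ccl12, and not for Ccl2, Ccl4, Ccl5, Ccl7 and Ccl24. The promoters of Ccl12 and Ccl8 are shown because these neighbours on the same strand had fitted LPS responses of opposite sign. Capitals mark TATAAA, which starts 31 bases before the start site of Ccl12 and 32 bases before that of Ccl8.
Ccl12: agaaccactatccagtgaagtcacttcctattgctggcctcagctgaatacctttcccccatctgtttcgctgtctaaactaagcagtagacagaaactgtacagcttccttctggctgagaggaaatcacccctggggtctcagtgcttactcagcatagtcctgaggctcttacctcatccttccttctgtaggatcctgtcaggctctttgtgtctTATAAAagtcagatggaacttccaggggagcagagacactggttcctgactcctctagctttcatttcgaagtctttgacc
Ccl8: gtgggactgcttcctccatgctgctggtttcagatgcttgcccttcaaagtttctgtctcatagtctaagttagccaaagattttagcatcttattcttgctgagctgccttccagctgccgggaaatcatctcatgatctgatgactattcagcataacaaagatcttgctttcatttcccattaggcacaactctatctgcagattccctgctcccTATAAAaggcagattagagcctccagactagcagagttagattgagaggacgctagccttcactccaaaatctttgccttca
The Ccl12 window is chr11:82101595-82101894 and the Ccl8 window chr11:82114935-82115234, both on the plus strand. Their bases were identical at 55.7% of the 323 columns of a global alignment, the highest share among the 10 pairs of these 5 promoters.

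The promoters of Ccl6 and Ccl9 are shown because these neighbours had the lowest root mean square difference between centred log2 levels of any pair of members. Capitals mark runs of 10 or more bases that both windows hold, the longest being 13 bases. In Ccl9 a pair of these runs overlaps, so their capitals join into a longer stretch that Ccl6 does not hold whole.
Ccl6: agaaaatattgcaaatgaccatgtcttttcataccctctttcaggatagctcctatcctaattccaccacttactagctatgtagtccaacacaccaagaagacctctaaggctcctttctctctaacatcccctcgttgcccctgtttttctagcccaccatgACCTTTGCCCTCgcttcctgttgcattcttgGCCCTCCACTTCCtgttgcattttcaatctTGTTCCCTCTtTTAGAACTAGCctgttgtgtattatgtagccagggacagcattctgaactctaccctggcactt
Ccl9: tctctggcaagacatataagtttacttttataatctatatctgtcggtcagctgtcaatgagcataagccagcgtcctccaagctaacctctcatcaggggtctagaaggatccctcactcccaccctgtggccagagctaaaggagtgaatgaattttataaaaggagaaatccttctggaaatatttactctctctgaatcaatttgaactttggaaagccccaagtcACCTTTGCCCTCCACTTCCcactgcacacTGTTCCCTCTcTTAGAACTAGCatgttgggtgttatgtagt
The Ccl6 window is chr11:83593038-83593337 and the Ccl9 window chr11:83578587-83578886, both on the minus strand. Neither GGGA and CC with any 4 bases between (NF-kappaB, held by 20.7% of 32851 promoters of this length) nor GAAA repeated after any 2 bases (the interferon-stimulated response element, held by 3.44%) was found on either strand of the 5 windows. TATAAA, in 13.6% of promoters, was found in Ccl8, Ccl9 and Ccl12, and TGANTCA (AP-1), in 7.81%, in Ccl9. GAGGAA (the core of PU.1 sites), in 28.3%, was found in Ccl3, Ccl8 and Ccl12. These matches describe letters in the windows and no binding.

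Totals were 58.5 to 318.5 M counts per animal of the sex experiment and 15.9 to 168.4 M per sample of the LPS experiment, ns samples included. Levels below are in CPM, 1 CPM being 1 count in each 1 M (mega) counts of the library's total after TMM scaling. P2ry12 was at 3007 CPM or more in every WT animal of the sex experiment and at 526.4 or less in every KO animal. In the compared groups of the LPS experiment it was at 3536 to 5476 CPM in WT ns, 588.3 to 1169 in KO ns, 405 to 1020 in WT LPS and 85.16 to 147.9 in KO LPS. In the LPS experiment 4 WT libraries, those whose names carry library number 2, went against their treatment labels. Those labelled WT ns 1 and 5 had 1814 to 2426 CPM of Saa3, an acute-phase gene, against 64.72 or less in the other 6 WT ns libraries. Those labelled WT LPS 1 and 6 had 1.607 to 2.979, against at least 1417 in the other WT LPS samples. In KO, Saa3 was at 0.8718 to 3.281 CPM in ns and at 1039 to 3548 in LPS. In the sex experiment it was at 0.3615 CPM or less in every animal. Their levels are given apart, and the groups compared were 6 WT ns, 6 WT LPS, 8 KO ns and 8 KO LPS samples. The counts of WT LPS 8 and 9 were far closer than those of any other pair (chi-square over its degrees of freedom 1.863, elsewhere at least 8.315), and they were summed and counted as 1 sample. Of 10 microglial markers, P2ry12 among them, the table of the sex experiment lists 9 and that of the LPS experiment 10. Each listed marker was above 0 in every library. Their summed level was 25650 to 42600 CPM in the sex experiment. In the compared WT groups of the LPS experiment it was 25850 to 43940 CPM in ns and 17160 to 25790 in LPS. In KO it was 34130 to 49530 in ns and 21290 to 27430 in LPS. P2ry12 adds less to the sums in KO, so they do not compare microglial content between WT and KO. Of the 10 markers 7 were called lower under LPS in WT and 6 in KO, beside 14.6% and 14.2% of all genes. The sum of 6 B cell markers, of which up to 2 were at 0 in a library, was 420 to 504.2 CPM in WT ns, 86.16 to 169.1 in WT LPS, 331.1 to 536.2 in KO ns and 123.9 to 224.4 in KO LPS. The part of either cell type in the chemokine levels was not tested.

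A further 3 libraries stood apart in the chemokines, all in the second of the 2 library sets that the names form. They stood apart over all genes as well. Chi-square over its degrees of freedom was at least 400.6 between WT LPS 7 and any other library of its label. For KO LPS 5 it was at least 661.9, where other KO LPS pairs had at most 118.5. For KO ns 6 it was at least 334.7, and KO ns 5 also lay apart, at 278.6 or more. The lowest TMM factors were those of WT LPS 7 (0.703) and KO ns 6 (0.779), and KO LPS 5 had 0.95. KO ns 6 and WT LPS 7 had the highest level of their group in 10 of 10 genes, and KO LPS 5 in 9 of 10. These libraries also had the lowest summed level of 10 border macrophage markers in their groups. The sums were 666.3 CPM in KO ns 6, 698.3 in WT LPS 7 and 616.2 in KO LPS 5, against 1041 to 2871, 3159 to 3910 and 2521 to 3439 in the rest of each group. WT LPS 7 had the highest summed level of 10 neutrophil markers among WT LPS samples (13170 against 2319 to 4684 CPM) and of 9 monocyte markers (2662 against 547.6 to 1153). KO ns 6 was the highest of KO ns by less, at 9750 against a next value of 9265 and at 1198 against 1052. In KO LPS the highest library in both sums was KO LPS 1 (4955 and 910.2), not KO LPS 5. The part of these cells in the chemokine levels was not tested. In bulk RNA, fewer cells of a type and less RNA per cell cannot be told apart.

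LPS changed most of the 10 genes in both genotypes. The fitted differences were above 0 for the CCR2 ligands and for Ccl3, Ccl4 and Ccl5, and below 0 for Ccl6, Ccl8, Ccl9 and Ccl24, in WT and in KO. In KO cells 8 of 10 passed the test, 4 higher (Ccl2, Ccl5, Ccl7, Ccl12) and 4 lower (Ccl6, Ccl8, Ccl9, Ccl24), against 26.2% of 17954 genes tested, 11.9% higher and 14.2% lower (edgeR's quasi-likelihood test, adjusted p under 0.05 after Benjamini-Hochberg over all genes). In WT cells 7 of 10 passed, 6 higher (Ccl2, Ccl3, Ccl4, Ccl5, Ccl7, Ccl12) and 1 lower (Ccl24), against 28.1% of all genes, 13.5% higher and 14.6% lower. The median log2 fold change of the 10 genes was 0.60 in KO and 2.59 in WT, beside -0.03 and -0.02 over all genes. Without WT LPS 7, KO LPS 5 and KO ns 6 the counts were 9 (of 37% of all genes) and 7 (of 34.7%), but in WT Ccl4 and Ccl7 were lost and Ccl6 and Ccl9 gained. With every WT library of number 2 in its labelled group, 0 of 10 genes and 0 of 15857 genes passed in WT (edgeR, 3605 genes with an unadjusted p under 0.05).

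**Figure D1:**
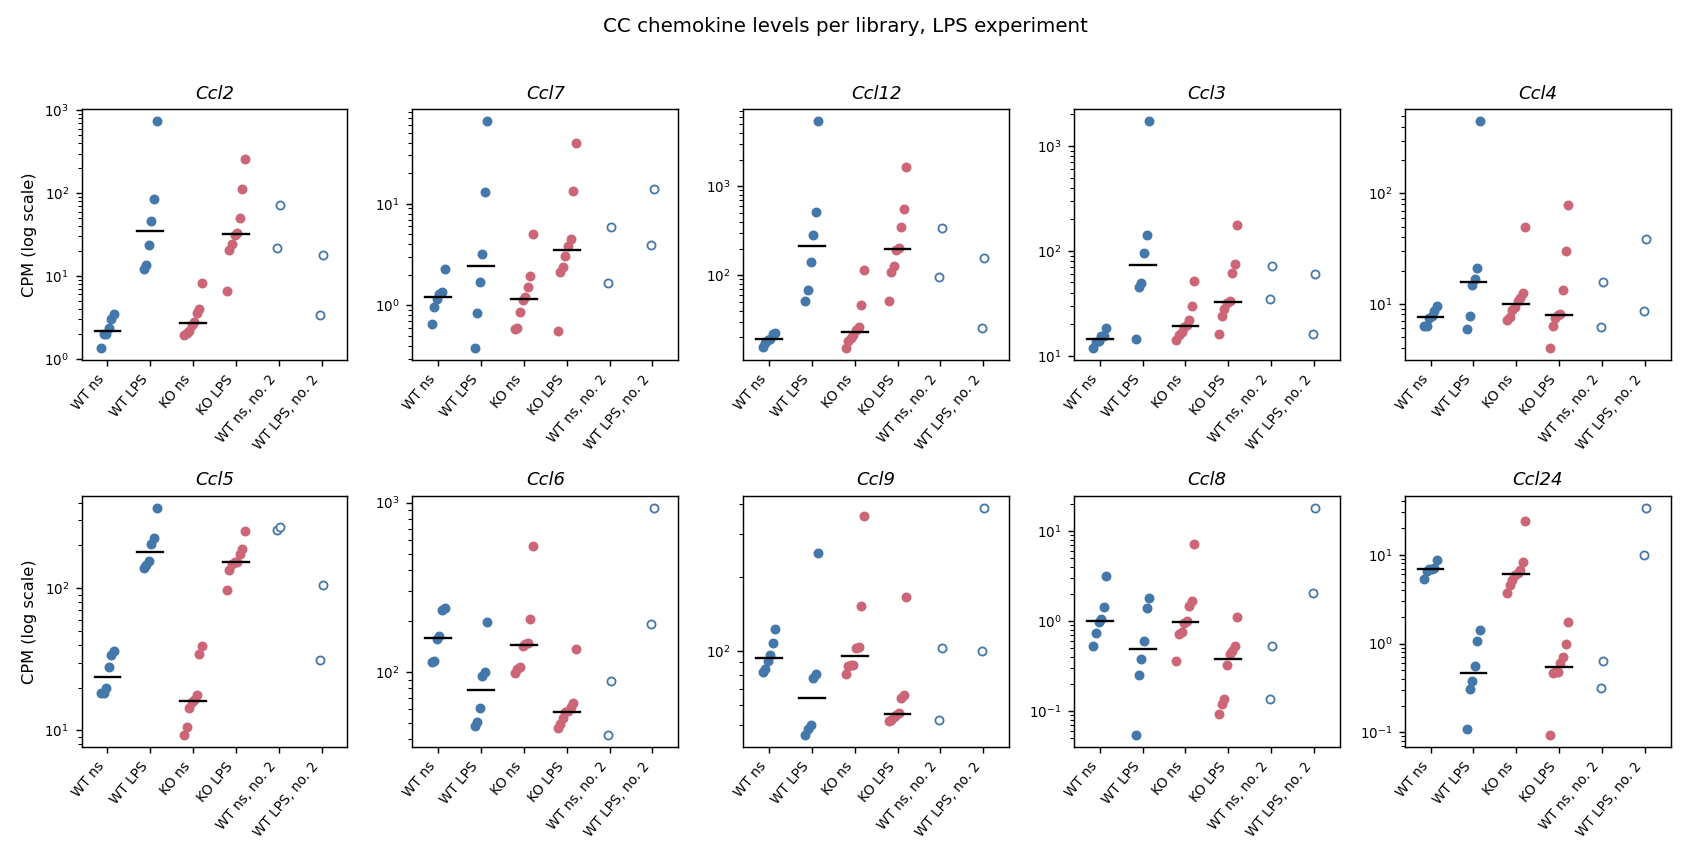
CPM (log scale) of each gene in every sample of the LPS experiment, WT in blue and KO in red, with a line at the median of each compared group; open circles are the WT libraries of library number 2, shown under their labels. In every compared LPS sample Ccl5 is above, and Ccl24 below, all compared ns samples, while 1 WT LPS sample stands far above its group in Ccl3 and Ccl4.

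Ccl2, the main monocyte attractant of the family, had the largest LPS response in both genotypes. In WT ns it was at 1.335 to 3.427 CPM (median 2.18) and in WT LPS at 12.04 to 747.5 (median 34.48). The WT groups did not overlap, and the log2 fold change was 5.41 ± 0.84 (SE, adjusted p 1.49e-05). In KO ns it was at 1.93 to 8.278 CPM (median 2.689) and in KO LPS at 6.521 to 259.8 (median 32.33), a log2 difference of 4.06 ± 0.68 (adjusted p 3.37e-05). The KO groups overlapped only between the highest ns library, KO ns 6, and the lowest LPS library, KO LPS 7. The WT value was 3.98 ± 0.62 without WT LPS 7 and still passed.

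Ccl12, the gene closest to Ccl2 in its pattern, had the highest level per kilobase of the family under LPS. It was at 15.66 to 22.11 CPM (median 18.98) in WT ns and at 51.81 to 5479 (median 212.6) in WT LPS. No WT LPS sample fell within the ns range, and the log2 fold change was 5.01 ± 0.88 (adjusted p 8.41e-05). In KO it was at 15.02 to 116 CPM (median 22.78) in ns and at 51.75 to 1648 (median 197.9) in LPS, a log2 difference of 3.43 ± 0.69 (adjusted p 0.000374). The KO groups overlapped through KO ns 6 at 116 CPM. Within a library of the compared groups Ccl12 stood at 4.305 to 14.07 times the level of Ccl2, so Ccl2 and Ccl12 were high or low in the same libraries although each LPS group spread widely. WT LPS 7 had 5479 CPM of Ccl12, the next WT LPS sample 511.8, and without it the log2 fold change was 3.47 ± 0.65.

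Ccl7 had the lowest level per kilobase of the CCR2 ligands in all 4 groups. It was at 0.6509 to 2.284 CPM (median 1.224) in WT ns and at 0.3778 to 65.56 (median 2.438) in WT LPS, groups that overlapped widely. Its log2 fold change in WT, 2.58 ± 0.81 (adjusted p 0.0173), was 1.37 ± 0.68 (adjusted p 0.157) without that library. In KO it was at 0.5812 to 4.996 CPM (median 1.168) in ns and at 0.555 to 39.38 (median 3.49) in LPS. The log2 fold change there was 2.27 ± 0.68 (adjusted p 0.0127), and KO LPS 7, with 12 counts, was below every KO ns library. The samples low in Ccl7 under LPS, WT LPS 3 and KO LPS 7, were also the lowest of their groups in Ccl2 and Ccl12.

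Ccl5 gave the most even response of the family. It was at 18.42 to 36.27 CPM (median 23.84) in WT ns and at 139.8 to 369.3 (median 179.7) in WT LPS. In KO it was at 9.227 to 39.39 CPM (median 16.12) in ns and at 97.55 to 254.3 (median 153.2) in LPS. No LPS sample of either genotype was within the ns range. The log2 fold change was 2.98 ± 0.34 in WT (adjusted p 1.19e-07) and 3.12 ± 0.30 in KO (adjusted p 4.1e-09). The coefficient of variation of Ccl5 was 42% in WT LPS and 28% in KO LPS, against 189% and 125% for Ccl2. T and NK cells also make Ccl5: the summed level of 10 T and NK cell markers, of which up to 3 were at 0 in a library, was 53.06 to 99.27 CPM in WT ns, 27.02 to 115.9 in WT LPS, 21.61 to 207.4 in KO ns and 2.897 to 64.04 in KO LPS.

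Ccl3 and Ccl4 had the fitted LPS responses furthest apart in the 2 genotypes. Ccl3 was at 11.75 to 18.38 CPM (median 14.5) in WT ns and at 14.38 to 1743 (median 73.15) in WT LPS. WT LPS 4, at 14.38 CPM, lay inside the ns range and the other 5 samples above it. The log2 fold change in WT was 3.85 ± 0.72 (adjusted p 0.000171), and it was 2.21 ± 0.44 (adjusted p 0.00039) without WT LPS 7. In KO, Ccl3 was at 14.07 to 51.53 CPM (median 19.16) in ns and at 16.04 to 176.5 (median 32.36) in LPS, a log2 difference of 0.99 ± 0.55 (adjusted p 0.203). Without KO ns 6, KO LPS 5 and WT LPS 7 the KO value was 0.86 ± 0.32 and passed (adjusted p 0.0365).

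Ccl4 was at 6.273 to 9.577 CPM (median 7.543) in WT ns and at 5.855 to 456.5 (median 15.72) in WT LPS. Its log2 fold change in WT, 2.6 ± 0.80 (adjusted p 0.0144), was 0.73 ± 0.52 (adjusted p 0.352) without WT LPS 7, the library with 456.5 CPM where the next had 21.18. In KO it was at 7.061 to 49.31 CPM (median 9.956) in ns and at 3.938 to 79.18 (median 7.986) in LPS. The medians were in the reverse order of the fitted log2 fold change of 0.22 ± 0.62 (adjusted p 0.846). The ratio of Ccl3 to Ccl4 in a library was 1.589 to 2.418 in WT ns and 2.349 to 8.505 in WT LPS, and 1.045 to 2.359 in KO ns and 2.088 to 9.684 in KO LPS. The ns and LPS ranges met at their edges in both genotypes, and the ratio was not tested.

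**Figure D2:**
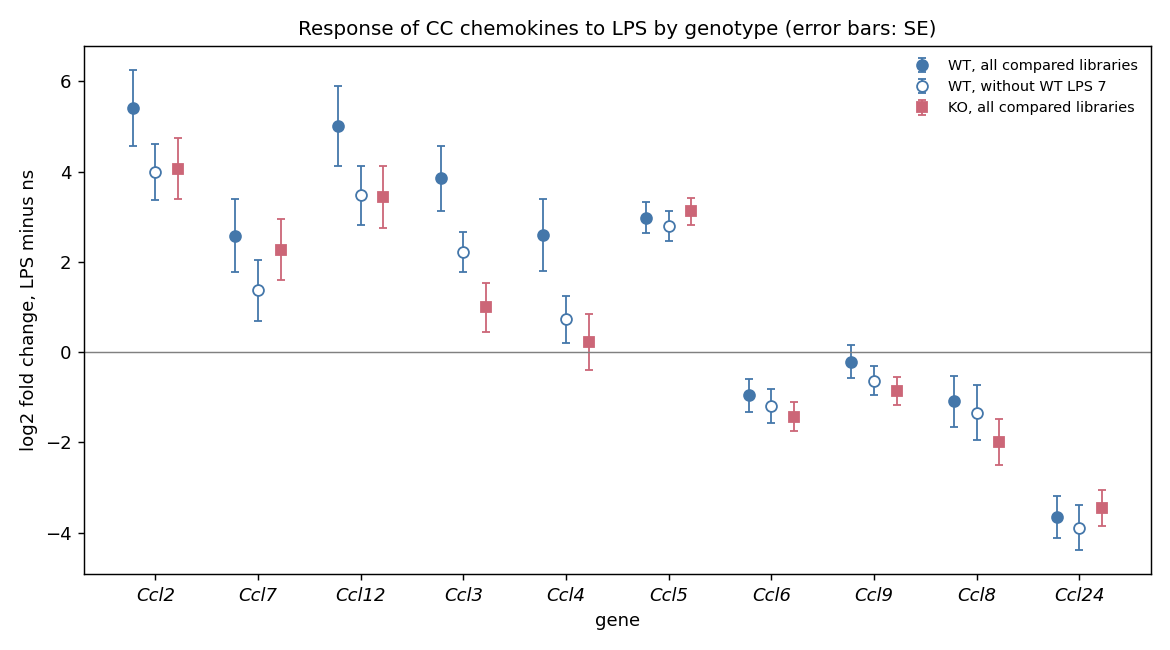
Fitted log2 fold change between LPS and ns samples for each gene, with SE, in WT cells (filled blue circles), in WT cells without WT LPS 7 (open blue circles) and in KO cells (red squares). Leaving out WT LPS 7 moves the WT value of Ccl4 from 2.6 to 0.73 and that of Ccl12 from 5.01 to 3.47, while Ccl5, at 2.98 and 2.79, moves little.

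The CCR1 ligands Ccl6 and Ccl9 fell under LPS in KO cells. Ccl6 was at 98.4 to 555.3 CPM (median 144.3) in KO ns and at 46.48 to 137.2 (median 58.32) in KO LPS, and fell by 1.43 on the log2 scale (SE 0.32, adjusted p 0.00124). Apart from KO LPS 5 at 137.2 CPM, every KO LPS library was below every KO ns library, the next highest being at 65.8. In WT it was at 113.6 to 239.6 CPM (median 159.5) in ns and at 47.99 to 197.5 (median 77.78) in LPS, with a log2 fold change of -0.96 ± 0.37 that missed the threshold (adjusted p 0.0528). Without WT LPS 7 it was -1.19 ± 0.38 and passed (adjusted p 0.0226).

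Ccl9 was at 80.56 to 356.8 CPM (median 95.43) in KO ns and at 51.65 to 165.7 (median 55.4) in KO LPS. It fell by 0.86 on the log2 scale (SE 0.31, adjusted p 0.0382), a call close to the threshold. It was lost in 9 of 28 fits that left out 1 library (WT ns 4, KO ns 1 and 6, and KO LPS 1, 3, 4, 6, 7 and 8), where the largest shift was to -0.58 without KO ns 6. The adjusted p was also 0.0521 with RLE size factors, 0.0557 with no filter on low counts and 0.0746 with no library set covariate. In WT it was at 82.4 to 123 CPM (median 93.61) in ns and at 45.21 to 250.9 (median 63.96) in LPS, a log2 difference of -0.21 ± 0.36 (adjusted p 0.709). Here too 5 of the 6 WT LPS samples, at 80.24 CPM or less, were below the whole ns range, and WT LPS 7 alone was above it. The ratio of Ccl6 to Ccl9 was 1.322 to 2.563 in WT ns and 0.7871 to 1.275 in WT LPS, and 1.181 to 1.695 in KO ns and 0.8276 to 1.072 in KO LPS, so that it was lower in every LPS sample than in every ns sample of its genotype. This ratio was not tested.

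Ccl24 had the largest fall of the family. It was at 5.381 to 8.791 CPM (median 6.95) in WT ns and at 0.1079 to 1.418 (median 0.4659) in WT LPS, a log2 difference of -3.65 ± 0.47 (adjusted p 8.16e-07). In KO it was at 3.743 to 24.12 CPM (median 6.108) in ns and at 0.09249 to 1.76 (median 0.5453) in LPS, a log2 difference of -3.45 ± 0.40 (adjusted p 1.03e-07). The groups did not overlap in either genotype, although the lowest LPS libraries held 2 counts. With Ccl5 in KO, and with Ccl2, Ccl5 and Ccl12 in WT, Ccl24 made up the 2 and 4 genes whose LPS and ns samples did not overlap, against 7.1% and 22.6% of all genes tested.

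Ccl8 was near the limit of detection in this experiment. It was at 0.3599 to 7.279 CPM (median 0.9804) in KO ns and at 0.09249 to 1.105 (median 0.3818) in KO LPS, and fell by 1.99 on the log2 scale (SE 0.51, adjusted p 0.00423). In WT it was at 0.5321 to 3.15 CPM (median 1.012) in ns and at 0.05397 to 1.823 (median 0.4888) in LPS, a log2 difference of -1.09 ± 0.57 (adjusted p 0.161). The lowest LPS libraries held 1 and 2 counts, so the levels there have a wide counting error. Border macrophages are known for Ccl8 and Ccl24: 4 of their 10 markers were called lower and 0 higher under LPS in each genotype. Of all genes 14.6% were called lower and 13.5% higher in WT, and 14.2% and 11.9% in KO. The summed level of the markers was 2075 to 3066 CPM in WT ns and 698.3 to 3910 in WT LPS. In KO it was 666.3 to 2871 in ns and 616.2 to 3439 in LPS. All 10 markers were above 0 in every library, and their part in the falls of Ccl8 and Ccl24 was not tested.

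The library set mattered for the number of calls. In set 1 alone 8 of 10 genes passed in KO (of 40.6% of all genes) and 8 in WT (of 38.4%). In set 2 alone, with WT LPS 7, KO LPS 5 and KO ns 6, 3 passed in KO (of 3.76%) and 4 in WT (of 2.77%). Within set 1 the log2 fold change of Ccl4 was 0.37 in WT and -0.13 in KO (adjusted p 0.503 and 0.8), and that of Ccl7 in WT 0.79 (adjusted p 0.258). Ccl6, Ccl8 and Ccl9 passed in WT in set 1, with log2 fold changes of -1.16, -1.79 and -0.62.

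The 4 WT libraries of number 2 differed from their labels in several chemokines. Of these, WT ns 1 and 5 (as labelled) had 271.9 and 258.7 CPM of Ccl5, 22.04 and 71.32 of Ccl2, 96.52 and 336.5 of Ccl12, and 0.3148 and 0.6387 of Ccl24. Each of these 8 values lay inside the LPS range of the other WT samples and outside their ns range. Those labelled WT LPS 1 and 6 had 31.42 and 104.9 CPM of Ccl5, below the LPS range, and 9.951 and 34.01 of Ccl24, above the ns range. WT LPS 1 was at 3.406 CPM of Ccl2, within the ns range. WT LPS 6 was at 17.8, inside the LPS range and above the ns range. The same held in WT LPS 6 for Ccl3 (59.73 CPM), Ccl4 (38.95), Ccl7 (13.88) and Ccl12 (155.6), so in these genes it went with its label. WT LPS 6 also had the highest levels of Ccl6 (934.2 CPM), Ccl8 (18.31) and Ccl9 (385.6) in the whole experiment, and the lowest total of all samples.

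The levels in KO and WT were compared at ns and under LPS. Whether a difference between these groups comes from loss of P2RY12 itself was not tested. At ns 0 of 10 genes passed between KO and WT, and 0 had an unadjusted p under 0.05 (edgeR). Of all genes 16, or 0.0891% of those tested, passed, and DESeq2 called 0 of the 10 and 0.29% of all genes. The groups overlapped in all 10, where 0.713% of all genes had groups that did not. Of the 10 fitted values 8 were above 0, against 44.6% over all genes. They ranged from -0.43 ± 0.30 for Ccl5 to 0.63 ± 0.68 for Ccl4, and the 95% interval for Ccl3, at 0.52 ± 0.59, ran from -0.63 to 1.68. Values of KO ns 6 entered each of these, and without it and the other pair that stood apart they ran from -0.57 for Ccl5 to 0.45 for Ccl3.

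Under LPS 0 of 10 genes passed (2 had an unadjusted p under 0.05 in edgeR, and 14 genes, or 0.078%, passed). Of the 10 fitted values 9 were lower in KO and 1 higher, where 44.3% of all genes were higher. The 10 genes share libraries, so these signs are not independent. Ccl3 had a log2 fold change of -2.34 ± 0.60 between KO and WT (unadjusted p 0.000503, adjusted p 0.22) and Ccl4 of -1.76 ± 0.68 (adjusted p 0.664). DESeq2 called Ccl3, at -2.41 (adjusted p 0.0195), with 0.228% of all genes. The groups overlapped in all 10 genes, against 0.223% of all genes whose groups did not. Without WT LPS 7 the value was -0.56 ± 0.40 for Ccl3 (adjusted p 0.995) and 0.27 ± 0.50 for Ccl4. For Ccl2, Ccl7 and Ccl12 the sign turned from -0.87, -0.34 and -1 to 0.64, 0.96 and 0.66.

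The genotype-by-LPS interaction, which asks whether LPS moved a gene differently in KO, was passed by 0 of 10 genes and by 0 of 17954 (edgeR, 890 genes with an unadjusted p under 0.05; 2 of the 10 had an unadjusted p under 0.05, and DESeq2 called 0 of the 10 and 3 genes, 0.0167%). The largest values were -2.87 ± 0.85 for Ccl3 (unadjusted p 0.00219, adjusted p 0.784) and -2.39 ± 0.98 for Ccl4 (unadjusted p 0.0212, adjusted p 0.784). Without WT LPS 7 they were -1.13 ± 0.55 and -0.44 ± 0.68. For Ccl5 the interaction was 0.14 ± 0.42, with a 95% interval from -0.68 to 0.96, and for Ccl24 it was 0.20 ± 0.57, from -0.91 to 1.32.

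With the sexes averaged, Ccl4 and Ccl3 had the largest fitted differences of the 10 genes between KO and WT, followed by Ccl6. Within a sex the order differed: the largest fitted value was that of Ccl6 in males (-0.71 ± 0.40, lower in KO) and of Ccl8 in females (0.83 ± 0.49). Ccl3 was at 188.1, 219.6, 257.4 and 278.5 CPM in male WT and at 248.5, 263.7, 328.2, 389.6 and 470 in male KO. It was at 228.2, 236.4, 243.9 and 283.5 CPM in female WT and at 277, 381.8, 411.1, 423.6 and 431.7 in female KO. In females 4 of the 5 KO animals, and in males 3 of 5, were above the highest WT animal. Averaged over the sexes, Ccl3 was higher in KO by 0.58 ± 0.12 on the log2 scale (1.5-fold) and passed (adjusted p 0.0431), the only one of the 10, against 0.432% of 31709 genes tested (0.419% higher; DESeq2 called 1.13%). With animals of the same sex and number taken as a block, 0 of the 10 passed. The call of Ccl3 lay close to the threshold. It was lost in 14 of the 18 fits that left out 1 animal, where the log2 fold change stayed between 0.51 and 0.63, with no filter on low counts (0.60 ± 0.13, adjusted p 0.0516), and without male WT 5 and female WT 2 (0.62 ± 0.15, adjusted p 0.0768, with 0.969% of all genes called).

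Ccl4 was at 83.31, 93.52, 111.4 and 123.3 CPM in male WT and at 83.52, 115.8, 147, 200.5 and 220.7 in male KO. In females it was at 73.79, 82.74, 92.5 and 108.8 CPM in WT and at 108.2, 132.3, 133.5, 156.4 and 175.1 in KO. Its log2 fold change over the sexes was 0.62 ± 0.17 (adjusted p 0.195), and DESeq2 called it (adjusted p 0.02) together with Ccl3 (adjusted p 0.00243). Some animals were high in both genes: male KO 1 and male KO 3 were the highest and second highest of the males in Ccl3 and Ccl4, and female KO 3 the highest of the females. Others were not: male WT 5 had the highest Ccl3 of the male WT animals (278.5 CPM) and the lowest Ccl4 of all males (83.31). Of 12 immediate early genes, which like Ccl3 and Ccl4 are known to be induced while cells are isolated, 0 were called. Their summed level was 4013 to 7722 CPM in male WT, 3050 to 4881 in male KO, 4262 to 6002 in female WT and 4362 to 7415 in female KO, and their part in the Ccl3 difference was not tested.

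**Figure D3:**
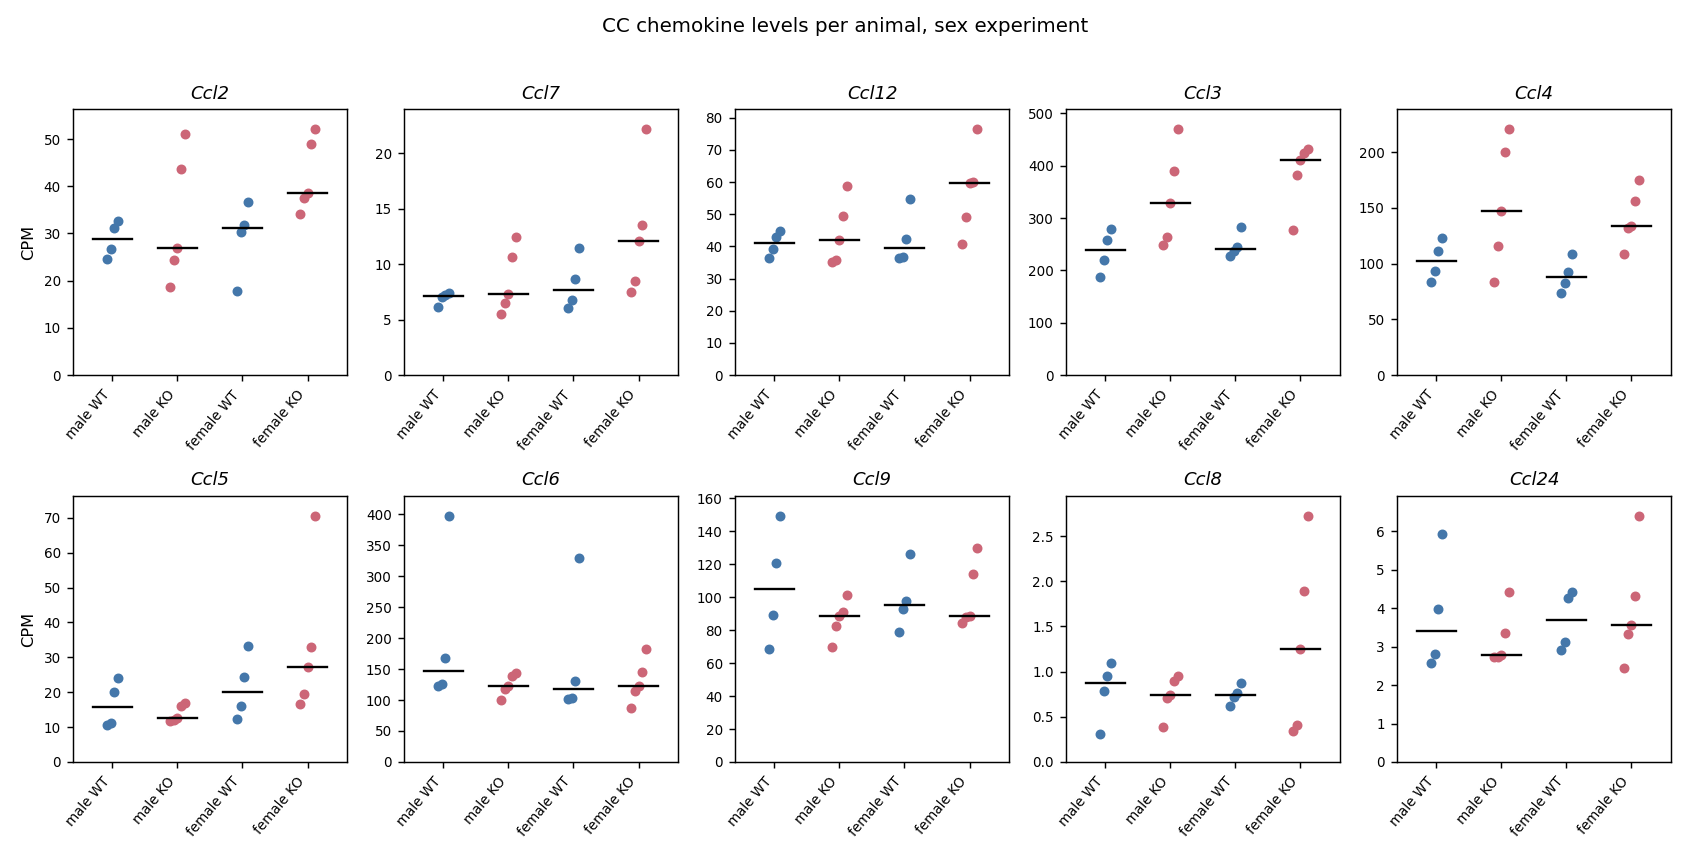
CPM of each gene in every animal of the sex experiment (linear axes from 0), WT in blue and KO in red, with a line at the group median. Ccl3 and Ccl4 lie higher in most KO animals of both sexes, and 1 animal in each WT group stands apart in Ccl6, at 397 and 329.6 CPM.

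Within each sex 0 of 10 genes passed. In males 3 of all genes (0.00946%) and in females 52 (0.164%) passed, and 2 and 3 of the 10 had an unadjusted p under 0.05. DESeq2 called 24 genes (0.0757%) in males and 213 (0.672%) in females. The log2 fold change of Ccl3 was 0.53 ± 0.17 in males and 0.63 ± 0.17 in females (adjusted p 0.719 and 0.243), and that of Ccl4 was 0.58 ± 0.24 and 0.66 ± 0.24. The KO and WT animals of a sex overlapped in all 10 genes, where they did not in 1.97% of genes in males and 2.19% in females. The sex-by-genotype interaction was passed by 0 of 10 and 0 of 31709 genes (edgeR, 879 genes with an unadjusted p under 0.05; 0 of the 10 had an unadjusted p under 0.05, and DESeq2 called 0 genes), and the 95% interval of that for Ccl3 ran from -0.37 to 0.58.

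Ccl6 was far above the rest in a pair of WT animals. Ccl6 was at 121.8, 126.6, 167.5 and 397 CPM in male WT and at 100, 117.5, 123.2, 139.1 and 142.9 in male KO. In females it was at 101.9, 103.9, 130.3 and 329.6 CPM in WT and at 87.1, 114.8, 123, 144.5 and 182.3 in KO. The high values belonged to male WT 5 and female WT 2. These animals also had the highest summed level of 10 neutrophil markers, 49750 and 29980 CPM, where the other WT animals had 1472 to 8547, male KO animals 3010 to 4749 and female KO animals 2511 to 6260. All 10 markers were above 0 in every animal. The same animals had the highest summed level of 9 monocyte markers, 4563 and 2617 CPM against 738.4 or less in the others. They had the lowest sum of the microglial markers, 25650 and 25970 against at least 29910. The last value is that of female KO 4, and P2ry12, among these markers, adds less in KO. The part of these cells in the Ccl6 levels was not tested. The log2 fold change of Ccl6 over the sexes was -0.53 ± 0.28 (adjusted p 0.619) with these animals and 0.03 ± 0.14 (adjusted p 1) without them. Ccl9 was highest in male WT 5 among males (149.2 CPM) but at 97.49 in female WT 2, and its log2 fold change was -0.14 ± 0.14 (adjusted p 0.904).

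**Figure D4:**
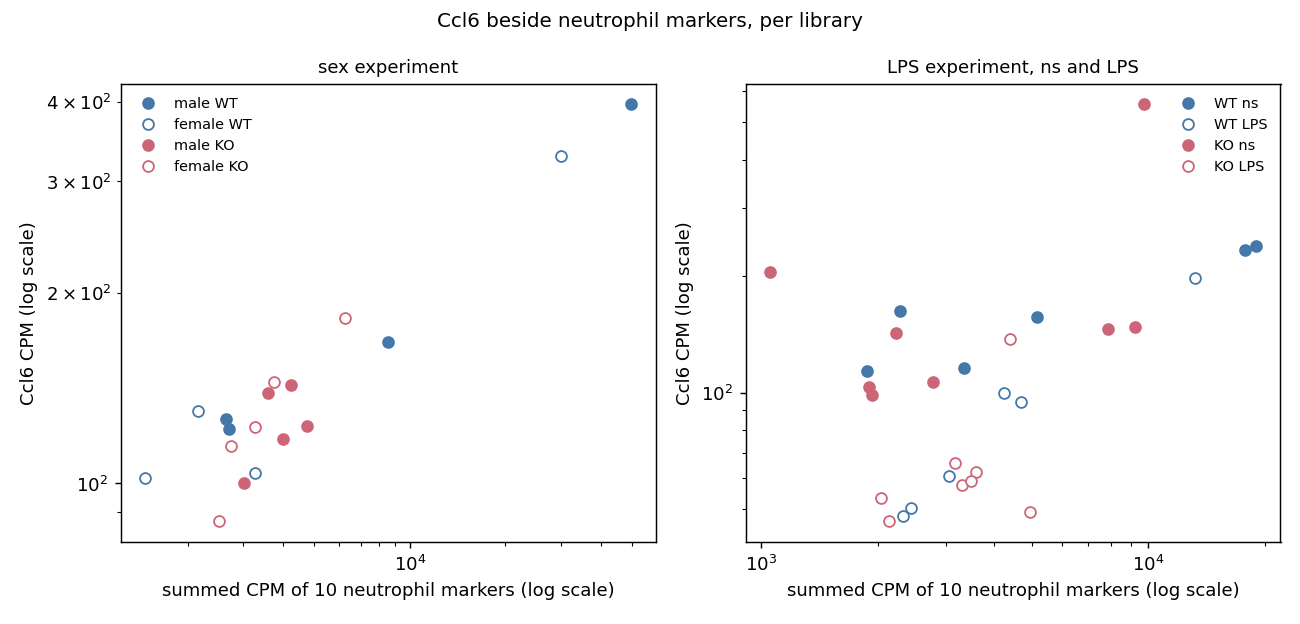
Ccl6 (CPM, log scale) against the summed CPM of 10 neutrophil markers (log scale) in each animal of the sex experiment (left) and each compared sample of the LPS experiment (right); colours give the genotype and open symbols females (left) or LPS (right). Male WT 5 and female WT 2, at 397 and 329.6 CPM of Ccl6, are the points furthest right on the left panel; KO ns 6, at 555.3, is the highest point of the right panel.

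In the LPS experiment Ccl6 was similarly high in WT ns 3 (239.6 CPM) and WT ns 8 (233.6), whose neutrophil markers summed to 18990 and 17770 CPM, against 113.6 to 162.6 CPM of Ccl6 and sums of 1873 to 5164 in the other 4 WT ns libraries. KO ns 6, with the highest Ccl6 of the compared samples (555.3 CPM), had a sum of 9750, and KO ns 4, with a sum of 9265, had 147.8 CPM of Ccl6.

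The other members did not pass the test between the genotypes in the sex experiment. Over the sexes Ccl2 had a log2 difference of 0.36 ± 0.19 (adjusted p 0.609), Ccl7 of 0.46 ± 0.21 (adjusted p 0.552) and Ccl12 of 0.27 ± 0.13 (adjusted p 0.552). Group means of Ccl2 were 28.75 ± 3.80 (SD, n = 4), 32.91 ± 13.75 (n = 5), 29.18 ± 8.02 (n = 4) and 42.25 ± 7.82 CPM (n = 5) in WT males, KO males, WT females and KO females. Ccl5 was at 10.47 to 24 CPM in males and at 12.25 to 70.51 in females, the highest animal being female KO 5, which also had the highest summed level of T and NK cell markers (333.1 CPM against 62.22 to 180.6 in the others). Its log2 fold change was 0.20 ± 0.29 (adjusted p 0.964). Ccl24 was at 2.454 to 6.396 CPM over the 18 animals and Ccl8 at 0.3122 to 2.723, with log2 fold changes of -0.06 ± 0.19 and 0.38 ± 0.35.

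The WT levels of some members, those of ns libraries in the LPS experiment, stood far apart in the 2 experiments. The tables were counted and scaled separately, so the values stand side by side with no test. Ccl3 was at 188.1 to 283.5 CPM in WT animals of the sex experiment and at 11.75 to 18.38 in WT ns libraries of the LPS experiment. For Ccl4 these ranges were 73.79 to 123.3 and 6.273 to 9.577 CPM, and for Ccl2 17.86 to 36.71 and 1.335 to 3.427. Ccl9 was at 68.54 to 149.2 and at 82.4 to 123 CPM, and Ccl24 at 2.576 to 5.92 and at 5.381 to 8.791. The immediate early genes summed to 4013 to 7722 CPM in male WT and 4262 to 6002 in female WT, and to 319.5 to 592.8 in WT ns.

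Levels were ordered per kilobase of annotated exon (GENCODE M21) in the LPS experiment. In WT ns the medians ran from Ccl6 (88.86 CPM per kb) through Ccl12 (35.34), Ccl9 (30.74), Ccl5 (24.83), Ccl3 (18.93), Ccl4 (11.43), Ccl24 (5.367), Ccl8 (1.98) and Ccl2 (1.916) to Ccl7 (1.528). Ccl6 was apart from Ccl12, Ccl3 from Ccl4 and Ccl4 from Ccl24, and the ranges of the other neighbours overlapped. In KO ns Ccl6 (80.39 CPM per kb) again led, before Ccl12 (42.42) and Ccl9 (31.34), and Ccl7 was last (1.458). Under LPS Ccl12 led in WT (395.9) and in KO (368.5), Ccl5 followed (187.2 and 159.6) and Ccl24 was last (0.3598 and 0.4211). In these LPS groups Ccl12 and Ccl5 overlapped in both genotypes.

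Among the members, Ccl6 and Ccl9, and Ccl2 and Ccl12, had the most alike patterns: the root mean square difference between their centred log2 levels over all 32 samples, the 4 WT libraries of number 2 included, was 0.44 for the first pair and 0.45 for the second. Ccl6 itself varied by 1.02 and Ccl9 by 0.77 around their means, less than Ccl2 and Ccl12 did, and the difference is not scaled to this spread. Ccl3 was nearest to Ccl4, at 0.76. Among genes outside the family, the interferon-inducible chemokine Cxcl10 was the nearest to Ccl2, at 0.61, and to Ccl12, at 0.62, where Ccl2 itself varied by 2.29 and Ccl12 by 2.11 around their means. Cd69, at 0.84, was the second for Ccl2 and Isg15, an interferon-stimulated gene, at 0.89 for Ccl12. Nearest to Ccl5 were Ifi204, an interferon-inducible gene, at 0.52, and Clec4a1, at 0.55. For Ccl24 they were Ramp1, at 0.55, and the microglial receptor gene Gpr34, at 0.56, and for Ccl8 they were Ms4a7, a border macrophage marker, at 0.60, and the scavenger receptor gene Cd36, at 0.70. Ccl3 had C3ar1, a complement receptor gene, at 0.69, and Snhg5 at 0.70. Ccl4 had Eef1e1 at 0.58 and Snrpd1 at 0.63. Ccl6 had Skint3 at 0.40 and Csmd3 at 0.41, Ccl9 had Gabarapl2 and Nck1 at 0.24, and Ccl7 had Gm10441 at 0.84 and Ifit3b at 0.90.

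Of the other CC ligands, 6 of 11 were abundant enough to test in the LPS experiment. Ccl22, a CCR4 ligand, rose from 0.3757 ± 0.113 (SD, n = 6) to 3.993 ± 2.39 CPM (n = 6) in WT and from 0.5334 ± 0.179 (n = 8) to 3.978 ± 1.35 (n = 8) in KO, with log2 fold changes of 3.40 ± 0.38 (adjusted p 7.12e-08) and 2.87 ± 0.32 (adjusted p 5.2e-08) in edgeR's test. Ccl11 (eotaxin) also rose in both, by 2.35 in WT and 2.40 in KO, from 0.06369 and 0.07804 CPM, and Ccl17, another CCR4 ligand, by 2.84 in WT. Ccl27a fell by 2.11 on the log2 scale in WT and fell by 1.51 in KO.

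Several receptors of these ligands were lower under LPS. Of 9 CC chemokine receptors tested, 1 rose and 5 fell in KO, where 11.9% of all genes were called higher and 14.2% lower. In WT 1 rose and 3 fell, beside 13.5% and 14.6% of all genes. Ccr3, the receptor for Ccl24, fell by 3.64 on the log2 scale in WT (SE 0.59, adjusted p 3.01e-05) and fell by 3.65 in KO (SE 0.52, adjusted p 3.89e-06). Ccr2 fell by 1.67 in WT and fell by 1.74 in KO, and is also among the 9 monocyte markers. Of these markers 2 were called higher and 1 lower under LPS in each genotype. The median of their summed level was 501.9 CPM in WT ns, 774.3 in WT LPS, 220.8 in KO ns and 628.6 in KO LPS. The ns and LPS ranges overlapped in both genotypes, and the part of monocytes in the fall of Ccr2 was not tested. Ccr6, the receptor of Ccl20, fell by 2.8 in WT and fell by 3.12 in KO, and Ccr7, by which activated dendritic cells reach lymph nodes, rose by 3.28 in WT and 1.88 in KO. The receptor that differed between the genotypes was Ccr1l1, a relative of Ccr1. It was at 169.8 ± 75 CPM (SD, n = 6) in WT ns and 2.711 ± 2.15 (n = 8) in KO ns (log2 fold change -6.03 ± 0.66, adjusted p 2.52e-06, edgeR), and at 332.3 ± 190 and 0.8446 ± 0.392 under LPS. In the sex experiment its log2 fold change was -0.22 ± 0.15 (adjusted p 0.747).

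Atypical receptors, which bind chemokines without G protein signalling, were tested in both experiments, 5 of 5. Ccrl2 was higher in KO over the sexes, by 0.64 ± 0.13 (adjusted p 0.0343), and Ackr2, a scavenger of CC chemokines, rose by 2.71 ± 0.86 under LPS in WT (adjusted p 0.018), from 0.05155 to 0.3348 CPM. Of 15 genes of chemokine receptor signalling, 2 rose and 5 fell under LPS in KO, beside the same 11.9% and 14.2% of all genes. In WT 0 rose and 3 fell, the latter a share near the 14.6% of all genes called lower. Elmo1, which acts with Dock2 on the small GTPase Rac, fell by 1.24 in KO and fell by 1.39 in WT. Rgs2, a regulator of G protein signalling, fell by 1.41 in KO and fell by 1.1 in WT. Rac2 rose by 0.83 in KO. In the sex experiment 0 of the 15 passed in either sex or over the sexes.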

How the data were processed

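RNA-seq libraries of CD11b-positive mouse brain cells came as a pair of gene tables whose values are whole-number counts, deposited by the authors without normalization. The submitters' processing notes name FastQC, STAR 2.6.1, featureCounts, Subread, DESeq2 and build GRCm39, with no role or order, and the strand setting is not given in the sources used here. Low counts were even in 79% to 89.2% of cases in the sex table and 39.7% to 45.6% in the LPS table, so the tables were not counted alike, and each was fitted alone. Of 57 listed libraries, 6 repeat libraries matched no column and were left out, and 0 columns lacked a sample.

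Counts were tested with edgeR 4.0.16 (R 4.3.3): filterByExpr, TMM factors, robust quasi-likelihood F tests, Benjamini-Hochberg over 31709 genes of 18 animals or 17954 genes of 32 samples, called at 0.05. The LPS model held a mean per group, the library set as covariate and separate means for WT libraries of number 2. SEs are the fold change divided by the root of F, and 95% intervals use 1.96 SEs. The fit was tested on simulated data with 200 changed genes. Alternatives were DESeq2 1.42.0, RLE factors, no filter, a replicate block, labelled groups, no libraries of number 2, WT LPS 8 and 9 kept apart, no set covariate, each set alone and each library left out. Leaving out libraries that stand apart together was added after the values were seen. Named genes were the 10 members, up to 5 called genes of each pathway list in a comparison and the pair of genes nearest to each member. The members and lists were chosen with earlier results of these data known. Values of 1 listed receptor gene are not reported here.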

Additional observations from a re-analysis of the deposited data

Results flagged for a closer look

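In 28 of 80 groups of a gene and condition 1 library lay far from the rest of its group. The rule was Dixon's critical value, which chance passes in about 1 in 20 groups if values are normally distributed. Whether these CPM values are was not tested, so the rate may not hold here. These groups also share libraries and are not independent, and most of the flagged values belong to 3 libraries. WT LPS 7 had 747.5 CPM of Ccl2 where the next sample had 84.75, 1743 of Ccl3 (next 141.5), 456.5 of Ccl4 (next 21.18) and 369.3 of Ccl5 (next 225.3). It also had 197.5 of Ccl6 (next 99.93), 65.56 of Ccl7 (next 13.03), 250.9 of Ccl9 (next 80.24) and 5479 of Ccl12 (next 511.8). KO LPS 5 had 259.8 CPM of Ccl2 (next 113), 176.5 of Ccl3 (next 75.55), 79.18 of Ccl4 (next 30.21) and 137.2 of Ccl6 (next 65.8). It had 39.38 of Ccl7 (next 13.5), 1.105 of Ccl8 (next 0.5262), 165.7 of Ccl9 (next 66.06) and 1648 of Ccl12 (next 563.6). KO ns 6 had 8.278 CPM of Ccl2 (next 4.035), 51.53 of Ccl3 (next 29.57), 49.31 of Ccl4 (next 12.54), 555.3 of Ccl6 (next 205) and 4.996 of Ccl7 (next 1.936). It had 7.279 of Ccl8 (next 1.668), 356.8 of Ccl9 (next 152.1), 116 of Ccl12 (next 46.6) and 24.12 of Ccl24 (next 8.205). The others were Ccl8 in WT ns 8, at 3.15 CPM (next 1.424), and Ccl6 in male WT 5, at 397 (next 167.5), and in female WT 2, at 329.6 (next 130.3).

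In the WT libraries of number 2, which entered no comparison between groups, 23 levels were above the highest of the 6 WT ns libraries. The one labelled WT ns 1 was at 22.04 CPM of Ccl2, 34.72 of Ccl3, 271.9 of Ccl5 and 96.52 of Ccl12. The one labelled WT ns 5 was at 71.32 CPM of Ccl2, 72.17 of Ccl3, 15.86 of Ccl4, 258.7 of Ccl5, 5.855 of Ccl7 and 336.5 of Ccl12. The library labelled WT LPS 1 had 3.942 of Ccl7, 25.37 of Ccl12 and 9.951 of Ccl24. The library labelled WT LPS 6 exceeded that range in all 10 genes, with 17.8 of Ccl2, 59.73 of Ccl3, 38.95 of Ccl4, 104.9 of Ccl5 and 934.2 of Ccl6. It had 13.88 of Ccl7, 18.31 of Ccl8, 385.6 of Ccl9, 155.6 of Ccl12 and 34.01 of Ccl24.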

How the results depend on the processing

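The causes of the changes below were not tested. The number of genes called over the sexes, 1, was 2 by DESeq2 and 0 with no filter, with the replicate block, and without male WT 5 and female WT 2. Under LPS it was 3 in KO and 4 in WT in set 2 alone, and 0 in WT with labelled groups. Between genotypes under LPS DESeq2 called 1. Leaving out 1 library gave 0 to 2 genes over the sexes, 7 to 9 in KO and 6 to 8 in WT under LPS.

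Signs of log2 fold changes turned as follows. At ns between genotypes Ccl7 was 0.01 by DESeq2 and RLE, 0.08 without number 2, 0.28 without the set covariate and 0.64 in set 2. With the replicate block Ccl24 was -0.12 and Ccl6 -0.17 at ns, and Ccl7 0.05 under LPS and 0.49 in the interaction. The block changed no other direction. Deviations of same-numbered animals had a mean r of 0.126 in the sex experiment (over 0.1 in 5 of 8 pairs; other pairs -0.0296), and those of same-numbered LPS libraries 0.0738 (10 of 35; other pairs -0.0138). Since some pairs were not over 0.1, the numbers were not taken to pair the libraries. With the block Ccl3 over the sexes was 0.55 (adjusted p 0.0704). It gave 84 genes called over the sexes against 137, and 5 in females against 52. With labelled groups the WT response was 1.16 for Ccl8, 0.40 for Ccl6 and 0.37 for Ccl9. Between genotypes it was -0.07, -0.91 and -1.74 for Ccl3, Ccl12 and Ccl2 at ns and -2.97 for Ccl24 under LPS. The interaction was -3.43, 0.34, 0.10 and 1.29 for Ccl24, Ccl12, Ccl7 and Ccl2. Without number 2 Ccl4 was -0.30 in KO, and Ccl24 -0.01 under LPS and -0.20 in the interaction, which was -0.03 without the set covariate. In set 1 Ccl4 was -0.13 in KO. At ns Ccl24, Ccl8, Ccl6 and Ccl9 were -0.41, 0, -0.32 and -0.01. Under LPS Ccl8, Ccl5, Ccl12, Ccl7 and Ccl2 were 0.15, 0.10, 0.31, 0.75 and 0.22. The interaction of Ccl8, Ccl6, Ccl12 and Ccl7 was 0.15, 0.03, 0.13 and 1.18. In set 2 Ccl9 was 0.24 in WT, and the interaction -0.55 for Ccl24 and -0.57 for Ccl5. Without male WT 5 and female WT 2 Ccl6 was 0.03. Without WT LPS 7, KO LPS 5 and KO ns 6, Ccl24, Ccl8 and Ccl6 were -0.24, -0.23 and -0.28 at ns, Ccl12, Ccl7 and Ccl2 0.14, 0.31 and 0.15 under LPS, and the interaction of Ccl7 0.51.

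Leaving out 1 library moved the values between genotypes under LPS over -1.52 to 0.66 (Ccl12), -1.37 to 0.64 (Ccl2), -2.32 to 0.27 (Ccl4), -0.99 to 0.96 (Ccl7) and -0.52 to 0.11 (Ccl9). At ns they ran over -0.25 to 0.19 (Ccl24), -0.29 to 0.30 (Ccl6), -0.24 to 0.24 (Ccl7) and -0.21 to 0.56 (Ccl8). The interaction ran over -1.86 to 0.15 (Ccl2), -0.04 to 0.49 (Ccl24), -0.03 to 0.32 (Ccl5) and -1.01 to 0.94 (Ccl7), Ccl4 in KO over -0.23 to 0.50, and the values over the sexes over -0.18 to 0.08 (Ccl24) and -0.04 to 0.34 (Ccl5). Counts of 1 to 17 limit Ccl7, Ccl8 and Ccl24 in the LPS experiment.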
